A study of Rattus norvegicus with 48 samples.

Results

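The miRNAs described here are the members of the miR-17/92 cluster, of its paralog the miR-106b/25 cluster, and miR-92b, in 4 segments of the rat nephron. They were chosen by name: every measured mature miRNA called rno-miR-17, rno-miR-18a, rno-miR-19a, rno-miR-19b, rno-miR-20a, rno-miR-25, rno-miR-92a, rno-miR-92b, rno-miR-93 or rno-miR-106b. This gave 10 of the 188 miRNAs in the table: rno-miR-92b-3p, rno-miR-25-3p, rno-miR-92a-3p, rno-miR-93-5p, rno-miR-106b-5p, rno-miR-106b-3p, rno-miR-17-5p, rno-miR-20a-5p, rno-miR-19a-3p and rno-miR-19b-3p. miR-18a was not analysed here. Small RNA was sequenced from proximal tubule, glomerulus, thick ascending limb (labelled Thick Henle Loop) and collecting duct, cut by laser capture from frozen kidney sections of 8 µm. The kidneys came from 3 male rats of the Sprague-Dawley strain, untreated and 6 months old, and all groups share this strain, sex, age and lack of exposure. Each tubule segment had 3 libraries, from rats 1, 2 and 3, and the glomerulus had 2, from rats 1 and 3. A further glomerulus library of rat 3, marked by the submitters as removed, was not analysed here. Tubules were found by antibody fluorescence and glomeruli by a histochemical stain, so the stain and the difference of glomerulus from tubule cannot be told apart.

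The miR-17/92 cluster is a polycistron that is transcribed under MYC and E2F control and is known for promoting proliferation and survival. It was copied in vertebrate evolution, and the miR-106b/25 cluster lies in an intron of Mcm7, a gene of the DNA replication helicase. miR-92b is transcribed on its own, and is known from neural progenitors. A miRNA finds its targets mainly through its seed, bases 2 to 8, so miRNAs from different clusters with the same seed can bind overlapping sets of transcripts. In kidney development the miR-17/92 cluster is known to be needed in nephron progenitors.

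All 10 members were found in the RefSeq miRNA table (build GRCr8), and they carry 4 seeds. The results turn on the 3 miRNAs with the seed AUUGCAC, which come from different loci: miR-92b-3p passed the test among segments and the others did not. They are printed 5′ to 3′ with the seed in capitals.
miR-92b-3p: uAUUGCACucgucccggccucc
miR-92a-3p: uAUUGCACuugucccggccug
miR-25-3p: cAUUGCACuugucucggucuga

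miR-92b-3p lies at chr2:176931663-176931684 on the minus strand. miR-92a-3p has 2 copies of the same mature sequence, at chr15:98588602-98588622 on the plus strand within the miR-17/92 cluster, and at chrX:137342945-137342965 on the minus strand. miR-25-3p lies at chr12:22156652-22156673 on the minus strand, within the Mcm7 gene. Counted from 1 at the 5′ end, miR-92a-3p and miR-92b-3p differ at 2 of the 21 positions they share, U10C and G21C (the base of miR-92a-3p first). How many mismatches the authors' mapping allowed is not given in the sources used here, and exchange of reads between these near-identical miRNAs was not tested.

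A second set shares the seed AAAGUGC. It is shown by its most abundant member, miR-93-5p, and by the founding member of the cluster, miR-17-5p; miR-20a-5p and miR-106b-5p carry the same seed.
miR-93-5p: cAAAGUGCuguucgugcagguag
miR-17-5p: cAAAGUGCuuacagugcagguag

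miR-93-5p lies at chr12:22156894-22156916 on the minus strand, and the mature arms of the miR-106b, miR-93 and miR-25 hairpins lie within 472 bases. miR-17-5p has copies on chromosomes 15 and X, and miR-19b-3p likewise, so that their values sum over both loci. The last seeds are GUGCAAA, of miR-19a-3p and miR-19b-3p, which differ by U11C alone, and that of miR-106b-3p, the other arm of the miR-106b hairpin. Of the 172 miRNAs of the table that have a RefSeq sequence, 0 others share any of these seeds.

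Values are TMM-normalized read counts, a scale on which libraries were made comparable by the authors, given as the mean over the 4 flow cell runs of a library. From the spacing of low values, a library held between 147996 reads (glomerulus, rat 3) and 1296993 reads (thick ascending limb, rat 3) over the 188 miRNAs. Of the marker lists, the proximal tubule miRNAs miR-192-5p and miR-194-5p summed to at least 21130 in the proximal tubule and at most 4280 elsewhere, and both endothelial miR-126a arms to at least 4299 in the glomerulus and at most 3170 elsewhere. In captured tissue, fewer cells of a type and less RNA per cell cannot be told apart.

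miR-92b-3p was highest in the collecting duct and lowest in the proximal tubule and glomerulus. Its collecting duct values were 376 in rat 1, 597 in rat 2 and 811 in rat 3. In the thick ascending limb they were 252, 243 and 202, in the same order of rats. In the proximal tubule they were 39.3, 75.9 and 74.7. The glomerulus libraries of rats 1 and 3 had 41.8 and 39.7. Every collecting duct library was above every thick ascending limb library, and each of these was above every proximal tubule and glomerulus library; the proximal tubule and glomerulus ranges overlapped. Libraries of 4 of the 188 miRNAs fell in this order without overlap (2.13%), and miR-92b-3p was the only 1 among the 10 members. For 26.1% of all miRNAs every collecting duct library was above every thick ascending limb library. As shares of the summed values of a library, these segments overlapped for miR-92b-3p. The thick ascending limb of rat 2 had 0.210% and the collecting duct of rat 1 had 0.205%. The means were 594 ± 217 in the collecting duct (SD, n = 3), 232 ± 26.6 in the thick ascending limb (n = 3), 63.3 ± 20.8 in the proximal tubule (n = 3) and 40.7 ± 1.47 in the glomerulus (n = 2). Within rats 1, 2 and 3 the collecting duct was 9.58-, 7.86- and 10.9-fold above the proximal tubule. It was 1.49-, 2.45- and 4.01-fold above the thick ascending limb, in the same order of rats.

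**Figure D1:**
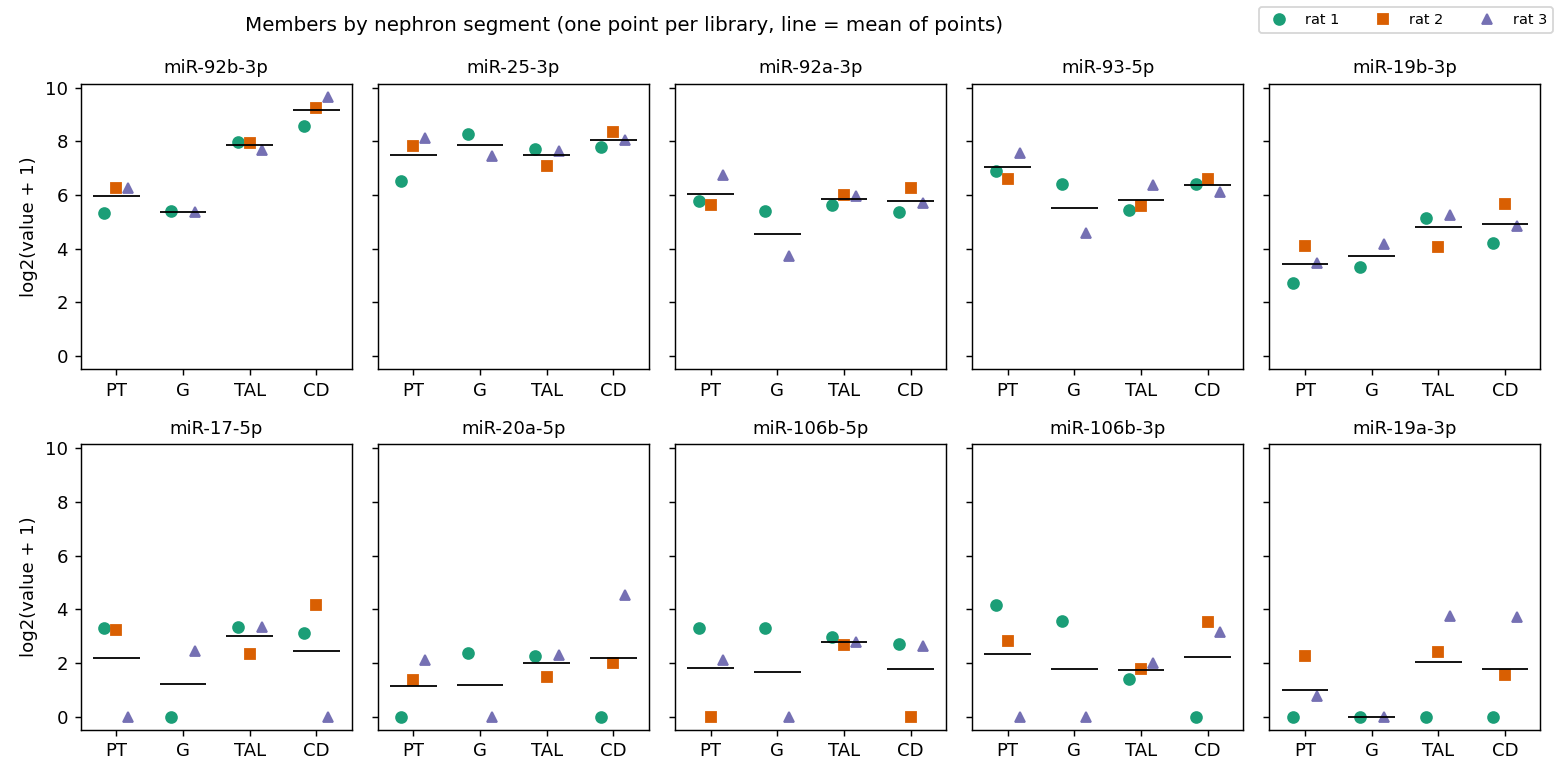
Level of each member as log2(value + 1), with 1 point per library, in proximal tubule (PT), glomerulus (G), thick ascending limb (TAL) and collecting duct (CD); the line is the mean of the points and the symbol marks the rat. miR-92b-3p steps up from PT and G to TAL and CD, while miR-25-3p stays between 90.6 and 323 in all libraries and the members of the lower panels reach 0 in some libraries.

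Across all 4 segments miR-92b-3p was the 1 member of 10 that passed the F-test of limma, adjusted over 188 miRNAs by Benjamini-Hochberg (adjusted p = 8.08e-10); 24.5% of all miRNAs passed. An exact permutation test of miR-92b-3p, which exchanged segment labels within rats and so used its own spread alone, gave an unadjusted p = 0.0035, where the smallest p the design allows is 0.0017. Against the mean of the other segments it was higher in the collecting duct by 2.74 ± 0.46 on the log2(value + 1) scale (SE, 6.68-fold), with an adjusted p = 1.4e-07 by limma and the same sign in 3 of 3 rats; 10.6% of all miRNAs were called higher there. It was lower in the glomerulus by −2.20 ± 0.55 (adjusted p = 0.00076 by limma, 2 of 2 rats), where 14.9% of miRNAs were called lower. It was lower in the proximal tubule by −1.56 ± 0.46 (adjusted p = 0.0083 by limma, 3 of 3 rats), where 1.6% were. That share depended on the scaling: 12.2%, 7.98% and 12.2% of miRNAs were called lower there after rescaling by median of ratios, to equal totals and by quantiles, and the split of 21 higher to 3 lower became 26 to 23, 31 to 15 and 23 to 23. The thick ascending limb value was 1.02 ± 0.46 and did not pass (adjusted p = 0.27 by limma); 2.13% of miRNAs passed there in either direction. The collecting duct call held in each alternative tried and without any 1 library. Omitting the library of rat 1, 2 or 3 from the proximal tubule ended the proximal tubule call (adjusted p = 0.17, 0.061 and 0.065 by limma), as did a fit without a variance trend (0.06), and the glomerulus call was lost with array weights (0.08).

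Between pairs of segments, 4 of the 6 comparisons of miR-92b-3p passed. The collecting duct was 13.0-fold above the glomerulus (log2 −3.70 ± 0.63, glomerulus minus collecting duct; adjusted p = 1.2e-07 by limma) and 9.37-fold above the proximal tubule (adjusted p = 2.9e-07 by limma), with 11.2% and 4.26% of all miRNAs called in these directions. The thick ascending limb was 5.33-fold above the glomerulus and 3.83-fold above the proximal tubule (adjusted p = 0.0018 and 0.011 by limma), where 7.98% and 1.06% were called in these directions. The thick ascending limb and the collecting duct differed by −1.29 ± 0.55 (log2, first minus second; adjusted p = 0.23 by limma), with a 95% interval of −2.36 to −0.22, and 2.13% of miRNAs were called lower in the thick ascending limb. The proximal tubule and the glomerulus differed by 0.48 ± 0.63 (adjusted p = 0.63 by limma), with an interval of −0.76 to 1.71, and 17.6% of miRNAs passed. The call of thick ascending limb over proximal tubule ended on omitting, from the proximal tubule, rat 1 or rat 2, and, from the thick ascending limb, rat 1 or rat 2 (adjusted p = 0.12, 0.095, 0.26 and 0.067 by limma), without a variance trend (0.081) and with flow cell D alone (0.063). That of thick ascending limb over glomerulus ended on omitting rat 1 from the thick ascending limb (0.1), and a difference between thick ascending limb and collecting duct passed without the glomerulus library of rat 1 or 3 (0.0077 and 0.0093) and with array weights (0.039).

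**Figure D2:**
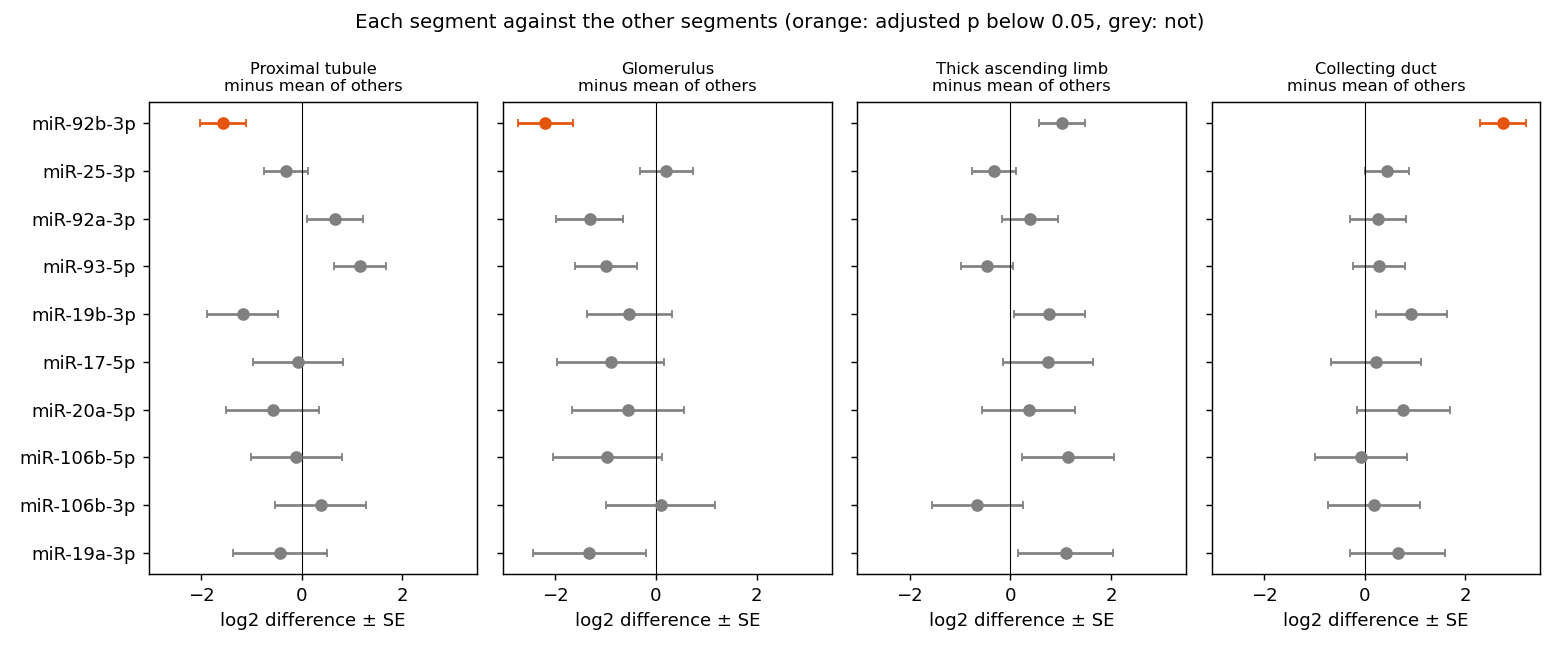
Log2 difference of each segment from the mean of the other segments for the 10 members, with the SE of the limma fit; orange points passed at an adjusted p below 0.05 and grey points did not. The orange points are miR-92b-3p in the proximal tubule (−1.56), the glomerulus (−2.20) and the collecting duct (2.74).

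miR-25-3p, which carries the same seed from the miR-106b/25 cluster, did not pass the test among segments. Its values were 90.6, 228 and 280 in the proximal tubule of rats 1, 2 and 3, and 208, 135 and 200 in the thick ascending limb. In the collecting duct they were 222, 323 and 262, and in the glomerulus of rats 1 and 3 they were 311 and 175. All segments overlapped, except that every collecting duct library was above every thick ascending limb library, as was so for 26.1% of all miRNAs. As shares of the summed values of a library, collecting duct and thick ascending limb overlapped too. The thick ascending limb of rat 1 had 0.146% and the collecting duct of rat 3 had 0.140%. Its F-test adjusted p was 0.74 by limma. The difference of proximal tubule from collecting duct was −0.56 (log2), with a 95% interval of −1.58 to 0.46; the same difference for miR-92b-3p was −3.23, with an interval of −4.30 to −2.16. As a share of the summed values of a library, miR-25-3p took 0.207% ± 0.0262 in the glomerulus (SD, n = 2) and 0.108% ± 0.0411, 0.126% ± 0.0168 and 0.129% ± 0.0099 for proximal, thick ascending and collecting duct segments in that order (n = 3 each).

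miR-92a-3p, the member of this seed with 1 of its 2 copies in the miR-17/92 cluster, was the lowest of the 3 in the thick ascending limb and collecting duct of every rat. It had 53.2, 48.3 and 107 in the proximal tubule of rats 1, 2 and 3, and 48.3, 63.6 and 61.1 in the thick ascending limb. In the collecting duct it had 40.5, 75.4 and 51.2, and in the glomerulus of rats 1 and 3 it had 40.9 and 12.3. The tubule segments overlapped throughout, and the glomerulus library of rat 3 was the lowest. The limma F-test gave an adjusted p = 0.41. Its result changed without the glomerulus library of rat 1, a fit in which the rat 3 library alone stood for the glomerulus. That library held the fewest reads (147996 over the 188 miRNAs), with 24 of miR-92a-3p.

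The 3 miRNAs of this seed were also compared by their shares of the summed values, which are shares of reads. miR-92b-3p made up 21.4%, 21.5% and 16.2% of their summed values in the proximal tubule of rats 1, 2 and 3, and 10.6% and 17.5% in the glomerulus of rats 1 and 3. It made up 49.5%, 55.1% and 43.6% of the thick ascending limb sums. The collecting duct shares were 58.8%, 60.0% and 72.1%. miR-25-3p was the most abundant of the 3 in every proximal tubule and glomerulus library, with 58.3% ± 7.89 and 78.0% ± 1.37, and was below miR-92b-3p in every thick ascending limb and collecting duct library, with 38.2% ± 6.78 and 30.2% ± 6.05 (SD, n = 3, 2, 3 and 3). The summed value of the seed was 332 ± 140 for proximal tubule, 310 ± 118 for glomerulus, 471 ± 34.2 for thick ascending limb and 919 ± 251 for collecting duct.

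**Figure D3:**
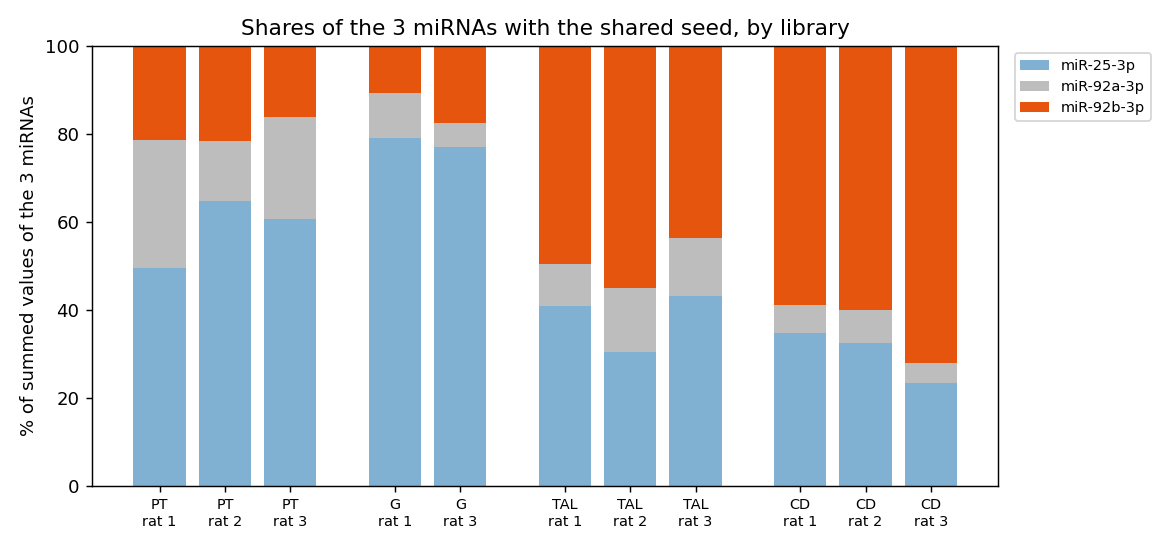
Share of miR-25-3p, miR-92a-3p and miR-92b-3p in their summed value, 1 bar per library, in percent. The miR-92b-3p share runs from 10.6% to 21.5% in proximal tubule and glomerulus libraries and from 43.6% to 72.1% in thick ascending limb and collecting duct libraries.

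Ratios of 2 miRNAs within a library were formed on the log2(value + 1) scale, where the added 1 leaves some dependence on scaling for scarce members. miR-92b-3p over miR-25-3p was −1.22, −1.59 and −1.93 in the proximal tubule of rats 1, 2 and 3, and −2.90 and −2.07 in the glomerulus of rats 1 and 3. It was 0.27, 0.85 and 0.01 in the thick ascending limb. The collecting duct had 0.74, 0.89 and 1.64. It was below 0 in all 5 proximal tubule and glomerulus libraries and above 0 in all 6 others. An exact permutation test within rats gave p = 0.0017, the smallest it can give, and an adjusted p = 0.078 (Benjamini-Hochberg over all 45 pairs of members), so this ratio did not pass. A lone pair at the smallest p adjusts to 0.0781, so at least 2 pairs would have to reach it for any to pass. The ratios of miR-92b-3p to miR-92a-3p and to miR-93-5p had p = 0.0087 and 0.014 by the same exact test (adjusted p = 0.2 and 0.21). With adjustment 0 of the 45 pairs passed, and 4 were below 0.05 without it, 3 of them with miR-92b-3p. The fourth was miR-92a-3p over miR-93-5p (exact p = 0.036, adjusted p = 0.41).

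miR-93-5p, the main carrier of the AAAGUGC seed, was highest in the proximal tubule. It had 118, 96.2 and 190 there in rats 1, 2 and 3, and 42.5, 47.2 and 82.0 in the thick ascending limb. The collecting duct had 84.2, 96.1 and 68.4, and the glomerulus of rats 1 and 3 had 83.4 and 23.2. Each proximal tubule library was above every other library, the closest pair being rat 2 of each of proximal tubule and collecting duct, and 10.1% of all miRNAs showed this order. The proximal tubule value of 1.17 ± 0.52 (log2 against the mean of the others, 3 of 3 rats) did not pass in limma (adjusted p = 0.12), nor did the F-test (adjusted p = 0.21); 12.8% of miRNAs passed in the proximal tubule in either direction. The F-test result changed without the glomerulus library of rat 1, a fit in which the rat 3 library alone stood for the glomerulus. That library held the fewest reads (147996 over the 188 miRNAs), with 45 of miR-93-5p. miR-93-5p held 91.4% ± 4.93 of the summed value of the AAAGUGC seed for proximal tubule, 85.2% ± 1.84 for glomerulus, 76.8% ± 7.44 for thick ascending limb and 80.2% ± 7.78 for collecting duct (SD, n = 3, 2, 3 and 3).

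miR-93-5p and miR-25-3p are cut from 1 primary transcript, and their ratio varied between libraries. miR-25-3p over miR-93-5p was −0.38, 1.24 and 0.57 (log2) in the proximal tubule of rats 1, 2 and 3, and 1.89 and 2.87 in the glomerulus of rats 1 and 3. In the thick ascending limb it was 2.26, 1.49 and 1.28, and in the collecting duct 1.41, 1.74 and 1.94. The exact permutation test within rats gave p = 0.092 and an adjusted p = 0.43 over the 45 pairs.

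The other arms of these clusters were scarce. miR-19b-3p, of the miR-19 family, had 5.57, 16.3 and 9.99 in the proximal tubule of rats 1, 2 and 3 and 34.5, 15.5 and 37.2 in the thick ascending limb. In the collecting duct it had 17.5, 49.1 and 28.0, and in the glomerulus of rats 1 and 3 it had 8.89 and 17.01. The segments overlapped, except that every collecting duct library was above every proximal tubule and glomerulus library (17.5 at the least against 17.01), an order that 9.04% of all miRNAs showed. As shares of the summed values of a library this order was lost. The glomerulus of rat 3 had 0.0220%, against 0.0095%, 0.0192% and 0.0149% in the collecting duct of rats 1, 2 and 3. Its F-test adjusted p was 0.33 by limma, and its exact permutation p was 0.14, or 0.0069 when rat 2 was omitted from the thick ascending limb. In the collecting duct it was above the proximal tubule in 3 of 3 rats, by 1.57 ± 0.84 (log2, adjusted p = 0.23 by limma).

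miR-17-5p, miR-20a-5p, miR-19a-3p and both miR-106b arms each stood at 0 in all runs of at least 1 library. miR-17-5p was at 8.98, 8.38 and 0 in the proximal tubule of rats 1, 2 and 3 and at 7.68, 17.03 and 0 in the collecting duct. It was at 9.19, 4.01 and 9.21 in the thick ascending limb, and at 0 and 4.45 in the glomerulus of rats 1 and 3. miR-20a-5p reached 22.1 in the collecting duct of rat 3 and was at 0 and 2.96 there in rats 1 and 2. It was at 0, 1.55 and 3.32 in the proximal tubule, at 3.83, 1.79 and 3.93 in the thick ascending limb, and at 4.19 and 0 in the glomerulus of rats 1 and 3. The collecting duct library of rat 3 thus stood above the other 10. miR-19a-3p was at 0 in both glomerulus libraries, where 3 reads over the group would be a value of 0.445. Its highest values came from rat 3, with 12.6 for thick ascending limb and 12.3 for collecting duct. In rats 1 and 2 it was at 0 and 4.30 for thick ascending limb and at 0 and 1.93 for collecting duct. The proximal tubule values were 0, 3.77 and 0.722.

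miR-106b-5p and miR-106b-3p, which are cut from 1 hairpin, were of like abundance. miR-106b-5p ran from 0 to 8.87 and miR-106b-3p from 0 to 17.1 over the 11 libraries. In the thick ascending limb miR-106b-5p was the more abundant arm in every rat, at 6.83, 5.30 and 5.88 against 1.65, 2.46 and 3.05. In the proximal tubule of rats 1 and 2 it was the less abundant arm, at 8.87 and 0 against 17.1 and 6.03, and in rat 3 the arms were at 3.32 and 0. The collecting duct had 5.53, 0 and 5.13 of miR-106b-5p against 0, 10.4 and 7.81 of miR-106b-3p. The glomerulus of rat 1 had 8.84 against 10.9, and that of rat 3 had 0 of both, so neither arm led throughout. The exact permutation p of the arm ratio was 0.49, with an adjusted p = 0.96 over the 45 pairs. The F-test adjusted p of these 5 scarce miRNAs ran from 0.64 for miR-19a-3p to 0.92 for miR-106b-3p by limma. The reads behind them limit what could be seen: a library held at most 94 reads of any of them, and a value of 0 still allows up to 3 reads, which is a value from 0.4 to 2.63 depending on the library. These limits cover counting error only, since PCR copies of a molecule are counted as separate reads.

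**Figure D4:**
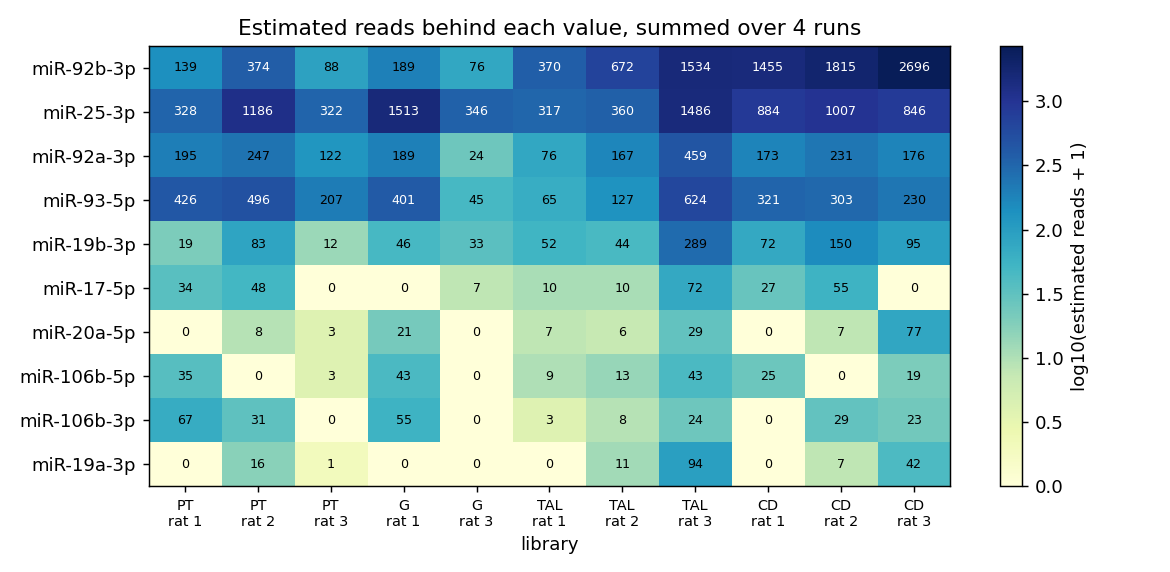
Estimated reads behind each value, summed over the 4 runs of a library, for the 10 members (rows) in the 11 libraries (columns); the colour is log10(reads + 1). miR-92b-3p rests on 76 to 2696 reads per library and miR-25-3p on 317 to 1513, while 5 members have libraries with 0 reads.

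Summed over its measured arms, the miR-17/92 cluster (miR-17-5p, 19a-3p, 19b-3p, 20a-5p and 92a-3p) was at 89.1 ± 28.4 for proximal tubule, 43.9 ± 14.3 for glomerulus, 103 ± 18.5 for thick ascending limb and 109 ± 40.6 for collecting duct. Of these arms, miR-17-5p, 19b-3p and 92a-3p also have copies on chromosome X, so the sum includes reads that cannot be assigned to this cluster. The miR-106b/25 cluster was at 346 ± 120, 306 ± 153, 247 ± 51.9 and 362 ± 60.6 in the same order (SD, n = 3, 2, 3 and 3). miR-92b-3p alone thus exceeded both cluster sums in the collecting duct of every rat, and neither of them in the proximal tubule of any rat. As mean shares of the summed values of a library, the miR-17/92 arms took 0.0493%, 0.0381%, 0.0721% and 0.0513% in the same order of segments. The miR-106b/25 arms took 0.191%, 0.253%, 0.171% and 0.174%, so their order of segments depended on the scale. All 10 members together took 0.275% ± 0.0444, 0.33% ± 0.0292, 0.411% ± 0.0468 and 0.516% ± 0.142 of the summed values. miR-92b-3p ranked between 24 and 33 of the 188 miRNAs in collecting duct libraries, 35 and 48 in thick ascending limb libraries, and 67 and 82 in the others.

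The miRNAs whose levels were most like those of miR-92b-3p over the 11 libraries were miR-31a-5p (Pearson r = 0.925), miR-9a-5p (0.919) and miR-141-3p (0.875), out of the non-members with a mean of at least 10. These values describe libraries that share segments, rats and scaling. Their means, in the order proximal tubule, glomerulus, thick ascending limb, collecting duct, were 4.8, 0, 24.2 and 416 for miR-31a-5p, 2.79, 0.448, 7.20 and 58.9 for miR-9a-5p, and 37.4, 3.80, 111 and 300 for miR-141-3p. The order of segments was the same as that of miR-92b-3p. miR-93-5p was most like let-7f-5p (0.936), miR-103-3p (0.933) and let-7g-5p (0.925). miR-92a-3p was most like miR-3553 (0.866), let-7f-5p (0.858) and let-7g-5p (0.85), and among the members like miR-93-5p (0.785). miR-25-3p was most like miR-322-5p (0.764), let-7i-5p (0.762) and miR-24-3p (0.728), and its correlation with its cluster partner miR-93-5p was 0.236. miR-19b-3p was most like miR-301a-3p (0.693), miR-30a-5p (0.678) and miR-31a-5p (0.64), and miR-19a-3p like miR-96-5p (0.713), miR-148a-5p (0.656) and miR-146b-5p (0.602). For miR-20a-5p these were miR-148a-5p (0.82), miR-1843a-5p (0.796) and miR-423-5p (0.648), and for miR-17-5p miR-361-5p (0.62), miR-24-2-5p (0.551) and miR-30e-3p (0.461). Both miR-106b arms had miR-125b-1-3p first (0.703 for miR-106b-5p and 0.688 for miR-106b-3p), followed by miR-181c-3p (0.603) and miR-100-5p (0.534) for the former and miR-30d-3p (0.645) and miR-27b-5p (0.538) for the latter.

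Markers of cell types moved with miR-92b-3p in part. The 4 measured of 5 epithelial miR-200 family markers summed to 827 to 1595 in the collecting duct, 412 to 792 in the thick ascending limb, 429 to 673 in the proximal tubule and 36.1 to 128 in the glomerulus, and all 4 passed the limma F-test. The neural marker miR-9a-5p, 1 of 2 listed, was at 50.3 to 69.3 in the collecting duct and at most 9.76 in the other libraries. The 3 measured of 5 white blood cell markers summed to 90.7 to 123.3 in the collecting duct, 78.7 to 117 in the glomerulus, 29.5 to 51.6 in the proximal tubule and 25.1 to 43.3 in the thick ascending limb. Both endothelial miR-126a arms summed to 1935 to 3170 in the collecting duct and 4299 to 6290 in the glomerulus. In the proximal tubule they summed to 1249 to 1801, and in the thick ascending limb to 1158 to 1633. The 2 measured of 3 smooth muscle, pericyte and mesangium markers summed to 6635 to 8080 in the collecting duct. They had 10382 to 16388 in the glomerulus, 6119 to 8034 in the proximal tubule and 4781 to 6094 in the thick ascending limb. The part of all these cell types in the miR-92b-3p differences was not tested. Of the 4 red blood cell markers, 0 were analysed here.

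A list of 18 miRNAs of the miR-15/16, miR-34 and let-7 families, which are known to restrain the cell cycle, was also compared. Of these, 15 were measured. The limma F-test called 3 of the 15, against 24.5% of all miRNAs: let-7g-5p (adjusted p = 0.0015), let-7b-5p (0.034) and miR-15b-5p (0.049). let-7g-5p was at 1398 ± 275 in the proximal tubule (SD, n = 3) and 333 ± 288 in the glomerulus (n = 2), and let-7b-5p at 1308 ± 164 and 553 ± 557. let-7g-5p was higher in the proximal tubule by 1.63 (log2, adjusted p = 0.00074 by limma), 1 of the 15 against 11.2% of all miRNAs. Both were lower in the glomerulus than in the other segments, by 1.51 and 1.24 on the log2 scale (adjusted p = 0.011 and 0.044 by limma), which is 2 of the 15 against 14.9% of all miRNAs called lower there. The 2 glomerulus libraries differed: the list summed to 14420 in rat 1 and to 3379 in rat 3, the library with the fewest reads. In the other segments it summed to 7327 to 16979, and the part of the rat 3 library in these calls was not tested. The median of all 188 miRNAs in the glomerulus was itself −0.56, and −0.20, −0.08 and 0.05 after rescaling by median of ratios, to equal totals and by quantiles. The list's median in the collecting duct against the others was 0.35, that of the 10 members 0.36 and that of all 188 miRNAs 0.23.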

How the data were processed

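Small RNA libraries (TruSeq kit, 50 bp single-end reads on a HiSeq2000, per the labels' protocols) were each run on 4 flow cells, A to D. The deposited values are a signal, read counts that the authors normalized by TMM and filtered for low counts, per the name of their file. Tools named in the submitters' processing notes are Bowtie 1.0.0, Bowtie2 2.2.5 and Partek 6.0, and their build is rn6. Per run, 88.3% to 99.0% of low values (30 reads at most) were multiples of a common step within 0.03 reads, so reads were estimated from it and no count test was run; on simulated data 44 of 44 steps were recovered within 1%.

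Tests used log2(value + 1) as the mean of the 4 runs, and n is the number of rats. limma 3.58.1 in R 4.3.3 fitted segment and rat over 11 libraries with a variance trend and Benjamini-Hochberg adjustment over 188 miRNAs at 0.05, two-sided. The fit leaves 5 residual degrees of freedom and estimated no variance differences beyond the trend, so its small p-values rest on a variance shared by miRNAs of like abundance. Exact permutation tests exchanged segment labels within rats (3456 arrangements). The rat is the block since its segments come from 1 animal; across miRNAs, deviations from the segment means correlated with a median of 0.07 within rats (15 library pairs) and −0.03 between rats (30 pairs). The fit and the permutation test were tested on simulated data.

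Members and lists were chosen with earlier results of these data known. All members are named, with the 3 non-members most alike to each by Pearson correlation, and the called miRNAs of the cell cycle list. Alternatives were pseudocounts of 0.5 and 5, a minimum mean of 10, 3 rescalings, no replicate block, no variance trend and array weights. Further ones were flow cell A alone, flow cell D alone and leaving out each library. Flow cells B and C were not tried alone.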

Additional observations from a re-analysis of the deposited data

How the results depend on the processing

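The F-test call of miR-92b-3p and its differences of collecting duct from the other segments, from the glomerulus and from the proximal tubule passed in all 22 alternatives; the collecting duct value ran from 2.196 to 2.96 (log2). The other members' F-tests stayed above the threshold except those of miR-92a-3p and miR-93-5p without the glomerulus library of rat 1. That fit rests on 1 glomerulus library, the library with the fewest reads. Rescaling moved the median of all miRNAs in the collecting duct from 0.23 to −0.08 (median of ratios), −0.24 (equal totals) and −0.10 (quantiles), and turned the difference of proximal tubule from glomerulus for miR-92b-3p, which never passed, to −0.18, −0.16 and −0.22. The thick ascending limb value of miR-92b-3p passed with median of ratios and with equal totals (adjusted p = 0.012 and 0.014 by limma), where 10.1% and 13.3% of all miRNAs passed against 2.13%, and without the glomerulus library of rat 1 or 3 (0.012 and 0.039). Shares of all miRNAs called in either direction against the other segments follow in the order proximal tubule, glomerulus, thick ascending limb, collecting duct. They were 12.8%, 19.7%, 2.13% and 12.2% before rescaling. With median of ratios they were 26.1%, 29.8%, 10.1% and 17%, and with equal totals 24.5%, 31.4%, 13.3% and 19.7%. Calls of members against the other segments numbered 3 and became 6 with either rescaling. Those between pairs of segments numbered 4 and became 7 with array weights, with no share of all miRNAs given here. Leaving out single libraries put these at 2 to 7 and at 2 to 11, the highest without the glomerulus library of rat 1. It put the members called by the F-test at 1 to 3, those below 0.05 in the exact permutation test at 1 to 2, and the ratios passing at 0 to 0, which says nothing of stability, since 3 to 7 pairs would then have to reach the smallest p together. All miRNAs called by the F-test numbered 46, 70 with equal totals, 28 with flow cell D alone and 33 to 85 without single libraries. With no replicate block 3 of the 45 ratios passed in the exact permutation test, those of miR-92b-3p to miR-25-3p, miR-92a-3p and miR-93-5p (adjusted p = 0.0088, 0.037 and 0.043), against 0 with labels exchanged within rats; with a pseudocount of 5, 2 passed. The cause of these changes was not tested. For member calls against the other segments or between pairs, shares of all miRNAs are not given with array weights or without single libraries. In those fits a change of the members cannot be told from a change of the whole set of miRNAs. A minimum mean of 10 removed 5 scarce members.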

Other observations

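Among the 5 members with a library at 0, zeros fell in part in all runs of a library and in part in some. Of 55 combinations of miRNA and library, 17 were at 0 in all 4 runs, 27 were above 0 in all 4 runs and 11 were at 0 in 1 to 3 runs, while 20 held 20 or more estimated reads. miR-17-5p, for example, had 55 reads in the collecting duct library of rat 2 and 0 in that of rat 3, and miR-106b-3p had 67 in the proximal tubule library of rat 1 and 0 in that of rat 3. The median SD of log2 values was 0.27 between runs and 1.99 between rats for miR-106b-3p, against 0.23 and 0.35 for miR-92b-3p.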
